A study of Mus musculus with 12 samples.

Results

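The transcripts described here encode 7 mitogen-activated protein (MAP) kinases, Mapk3, Mapk8, Mapk9, Mapk10, Mapk11, Mapk12 and Mapk14, out of the 19268 genes measured in mouse forebrain. They were taken by gene symbol, but the group was chosen by a measured value, the higher normalized count of Mapk10 in P60-WT than in P25-WT forebrain. Its values in that comparison, and those of the other 6 kinases, are therefore given as a description with no test.

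RNA was sequenced from the forebrain, without the olfactory bulb, of male C57BL/6J mice that were juvenile (P25) or adult (P60). At each age, Shank3 knock-out (KO) mice were set against wild-type (WT) mice, with 3 libraries in each of the 4 groups P25-WT, P25-KO, P60-WT and P60-KO and 1 mouse behind each library. KO mice carried on both alleles a Shank3 gene that lacks some internal exons. Shank3 is a scaffold protein of excitatory synapses, and the litters that mothers reared held wild-type, heterozygous and knock-out pups. The study asked how the loss of Shank3 altered forebrain transcripts at either age, and the same libraries also give the difference between ages within a genotype.

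MAP kinases are the last tier of a phosphorylation relay in which a MAP3 kinase activates a MAP kinase kinase, which in turn phosphorylates a threonine and a tyrosine in the activation loop of the MAP kinase. The ERK kinases, here ERK1 from Mapk3, respond mainly to growth factors and synaptic activity, whereas the JNK kinases (JNK1 from Mapk8, JNK2 from Mapk9, JNK3 from Mapk10) and the p38 kinases (p38α from Mapk14, p38β from Mapk11, p38γ from Mapk12) respond mainly to stress and cytokines. In the brain JNKs also act on the neuronal cytoskeleton, and Mapk10 is the JNK gene whose expression is largely restricted to neurons. Transcript levels do not measure the phosphorylated, active kinase.

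The branches differ in the coding sequence of the activation loop, shown here because it separates the 7 genes into ERK, JNK and p38. Each line gives 33 bases of coding sequence, read from the GENCODE M21 transcripts on GRCm38, and the 9 capitals are the codons of the phosphorylated threonine, the residue between and the phosphorylated tyrosine.

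Mapk3: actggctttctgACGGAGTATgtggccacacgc
Mapk8: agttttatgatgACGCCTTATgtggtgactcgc
Mapk9: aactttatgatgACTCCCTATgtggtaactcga
Mapk10: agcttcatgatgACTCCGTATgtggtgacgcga
Mapk11: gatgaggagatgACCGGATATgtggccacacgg
Mapk12: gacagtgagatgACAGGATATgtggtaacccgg
Mapk14: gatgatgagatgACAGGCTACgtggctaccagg

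The capitals lie in exon 4 of 9 of Mapk3 (chr7:126763458-126763466, plus strand), exon 6 of 12 of Mapk8 (chr14:33393003-33393011, minus strand), exon 6 of 12 of Mapk9 (chr11:49872830-49872838, plus strand) and exon 8 of 14 of Mapk10 (chr5:102989681-102989689, minus strand). Among the p38 genes they lie in exon 7 of 12 of Mapk11 (chr15:89145866-89145874, minus strand), exon 7 of 12 of Mapk12 (chr15:89134676-89134684, minus strand) and exon 8 of 13 of Mapk14 (chr17:28728399-28728407, plus strand). Of the 33 bases, 27 or 28 were identical between any pair of JNK genes and 25 or 26 between any pair of p38 genes. Mapk3 shared between 17 and 21 bases with the other genes. Whole transcripts were compared by another measure, exact words of 31 bases. The share of 31-base words also found in another annotated gene was 0 for Mapk9 and Mapk14, and at most 3.02%, for Mapk12. No exon base of any of the 7 genes overlapped another annotated gene.

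The deposited values are normalized counts, scaled between libraries by the authors with DESeq2, and they do not keep the number of reads, so the depth behind a value is unknown. The 12 libraries summed to between 30568259 and 32348554 normalized counts and had between 19183 and 19223 genes above 0. Shank3 in the KO libraries lay at 48.0% of the WT mean at P25 and 50.2% at P60, with every KO library below every WT library. All 8 forebrain identity genes checked were measured, and they summed to between 8394 and 10087 normalized counts per library, against 162 to 310 for the 6 of 8 mid- and hindbrain identity genes that were analysed. The latter summed to 162 to 220 in P25-KO and 213 to 295 in P60-KO, and to 182 to 255 in P25-WT and 202 to 310 in P60-WT. For the 4 of them tested, the median log2 fold change with age was 0.45 in KO and 0.28 in WT. Its part in the age differences was not tested. P25-WT replicate 2 stood farthest from its group, with a root mean square deviation of 0.309 on the log2 scale against 0.229 to 0.281 in the other libraries, and values of Mapk3, Mapk12 and Mapk14, whose P25-WT means moved most without it, are also given without it.

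Mapk10 (ENSMUSG00000046709, chr5:102907948-103211334, minus strand) was at 9449, 9068 and 8324 normalized counts in the P25-WT libraries, a mean of 8947 ± 572 (SD, n = 3). The P25-KO libraries held 9714, 9023 and 7934, a mean of 8890 ± 897 (SD, n = 3). At P60 the WT libraries held 13389, 13721 and 12940, a mean of 13350 ± 391.8 (SD, n = 3), and the KO libraries 11230, 12570 and 12343, a mean of 12048 ± 717 (SD, n = 3). Every P60 library was above every P25 library, and every P60-KO library was below every P60-WT library, while the P25 genotypes overlapped.

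Of the other JNK genes, Mapk9 (ENSMUSG00000020366, chr11:49846751-49886421, plus strand) had 6779, 6266 and 6726 normalized counts in P25-WT and 6677, 6655 and 6311 in P25-KO. It had 7341, 7802 and 7274 in P60-WT and 7073, 7674 and 7298 in P60-KO. Mapk8 (ENSMUSG00000021936, chr14:33377898-33447158, minus strand) had 3354, 3362 and 3115 in P25-WT, 3287, 3370 and 2975 in P25-KO, 3556, 3571 and 3798 in P60-WT and 3502, 3527 and 3645 in P60-KO. For both genes the order of group means was P25-KO, P25-WT, P60-KO, P60-WT. The genotypes overlapped at each age, and the ages did not overlap.

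Mapk3 (ENSMUSG00000063065, chr7:126759601-126765819, plus strand) went the other way with age. It had 4798, 5622 and 4660 normalized counts in P25-WT and 4775, 4811 and 5161 in P25-KO. It had 3893, 4083 and 3668 in P60-WT and 3727, 3906 and 3718 in P60-KO. All 6 adult libraries lay below all 6 juvenile libraries, with the genotypes overlapping at both ages. The value of 5622 is from P25-WT replicate 2.

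Mapk14 (ENSMUSG00000053436, chr17:28691329-28748406, plus strand), the gene of the widely expressed p38α, had 2874, 2386 and 2999 normalized counts in P25-WT, 3006, 2909 and 2963 in P25-KO, 3122, 2824 and 3045 in P60-WT and 2951, 2721 and 2932 in P60-KO. Mapk11 (ENSMUSG00000053137, chr15:89142486-89149628, minus strand) had 1332, 1214 and 1239 in P25-WT, 1287, 1237 and 1216 in P25-KO, 1484, 1143 and 1498 in P60-WT and 1526, 1184 and 1452 in P60-KO. Groups next to each other in the order of means overlapped for both genes. The lowest Mapk14 value was again from P25-WT replicate 2, and in each P60 group the Mapk11 value of replicate 2 was low.

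Mapk12 (ENSMUSG00000022610, chr15:89130584-89140703, minus strand), the gene of p38γ, had 179, 154 and 204 normalized counts in P25-WT and 142, 174 and 176 in P25-KO. It had 285, 322 and 208 in P60-WT and 233, 235 and 170 in P60-KO. The P60 values spread widely in both genotypes, with replicate 3 lowest in each, and neighbouring groups in the order of means overlapped. Mapk11 and Mapk12 lie 349995 and 358920 bases from Shank3 on chromosome 15, the locus that was targeted in the KO mice.

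**Figure D1:**
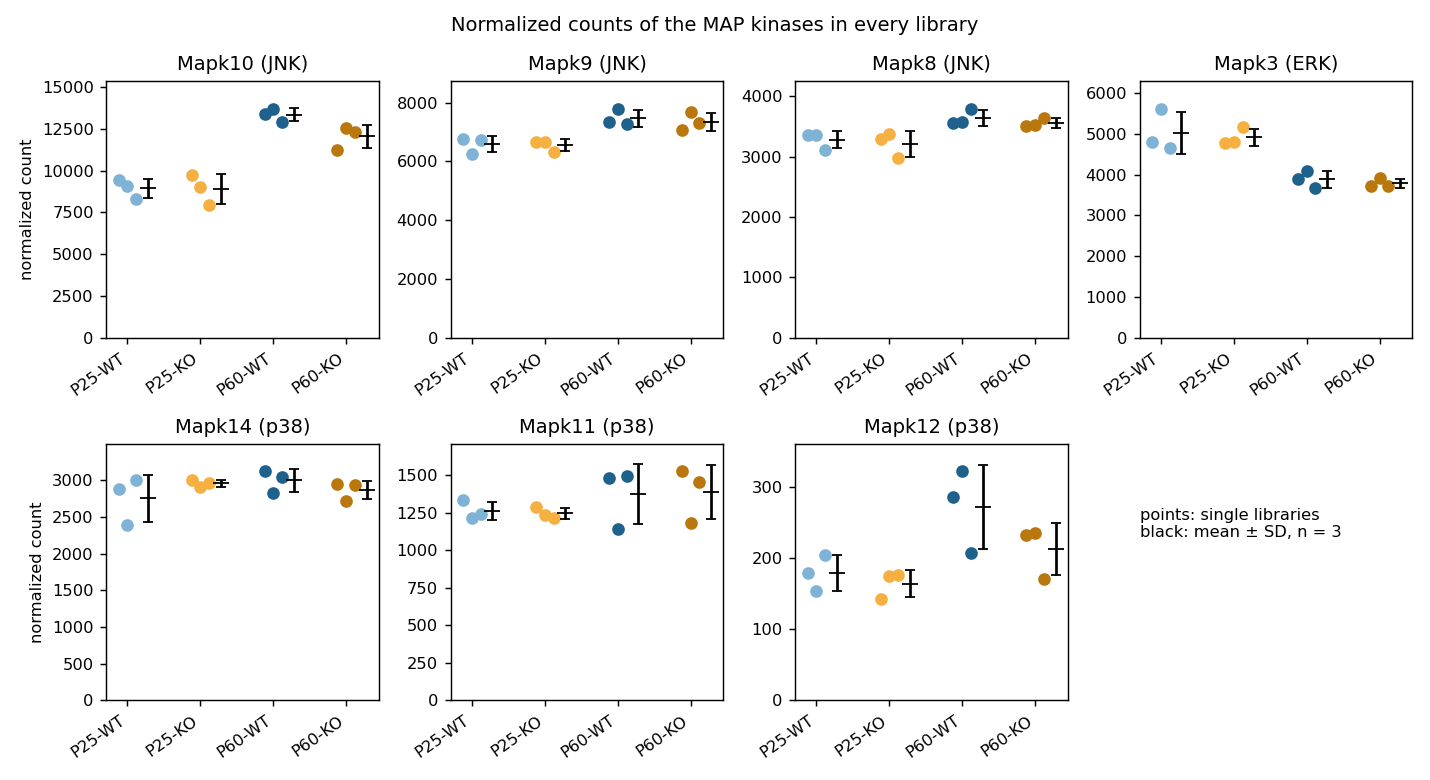
Normalized counts of the 7 MAP kinases (vertical axes from 0, a separate scale for each gene) in the 12 libraries, by group (horizontal axes). Coloured points are single libraries and black bars are the mean ± SD (n = 3). Mapk10 lies at 7934 to 9714 in the P25 libraries and 11230 to 13721 in the P60 libraries, and Mapk3 is lower in the P60 libraries.

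Levels were compared between genes per kilobase of transcript, since a longer transcript gives more reads. With the median length of each gene's protein-coding transcripts, Mapk3 was the most abundant in P25-WT, at 3967 ± 410 normalized counts per kilobase (SD, n = 3). Mapk8 followed at 2145 ± 92.1, Mapk9 at 1410 ± 60.4, Mapk10 at 1350 ± 86.3, Mapk14 at 875 ± 103, Mapk11 at 513 ± 25.3 and Mapk12 at 99.1 ± 13.9 normalized counts per kilobase. With this length Mapk9 and Mapk10 did not differ beyond their spread in that group. With the longest coding transcript they were at 1408 ± 60.3 and 1242 ± 79.4 (SD, n = 3). In P60-WT the level per kilobase of Mapk10 was 2014 ± 59.1, above Mapk9 at 1598 ± 61.5 and below Mapk8 at 2383 ± 88.7. The place of Mapk8 depended on the transcript assumed. Its coding transcripts have a median of 1528 bases and a longest of 5756, and with the longest its level was 569 per kilobase in P25-WT and 633 in P60-WT, under Mapk14. Mapk3 stayed the highest and Mapk12 the lowest with either length in P25-WT and P60-WT.

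Among the 7 kinases, the share of Mapk3 in the summed level per kilobase was 38.3% in P25-WT and 28.6% in P60-WT, and 37.8% in P25-KO and 29.0% in P60-KO. Without P25-WT replicate 2 its P25-WT share was 36.6%, at 3733 normalized counts per kilobase, and the levels of Mapk14 and Mapk12 were 933 and 106 per kilobase. The levels of the other 4 kinases were then between 522, for Mapk11, and 2117, for Mapk8. The share of Mapk10 was 13.02% in P25-WT and 18.8% in P60-WT, and 13.1% in P25-KO and 17.6% in P60-KO. These shares cover only the 7 genes.

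Within the JNK genes alone, Mapk10 made up 29.0%, 27.3% and 26.6% of the JNK level per kilobase in the P25-KO libraries and 30.8%, 32.4% and 32.1% in the P60-KO libraries. In P25-WT it made up 28.1%, 27.9% and 26.5%, and in P60-WT 34.1%, 34.1% and 32.6%. The ages did not overlap in either genotype, and every P60-WT library was above every P60-KO library. With the longest transcripts the mean share of Mapk10 was higher throughout, at 38.6% in both P25 groups, 45.4% in P60-WT and 43.3% in P60-KO.

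**Figure D2:**
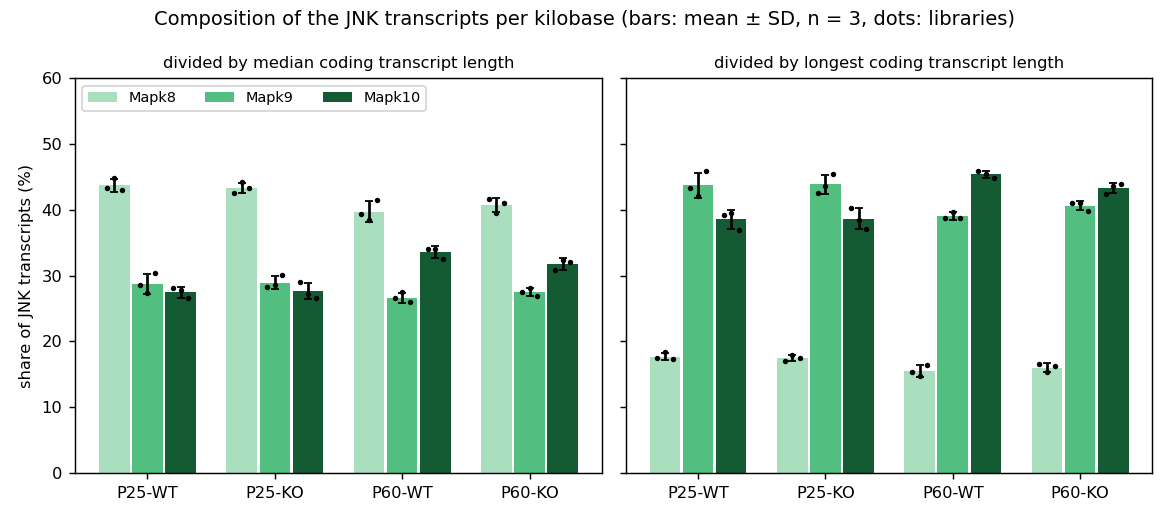
Share of Mapk8, Mapk9 and Mapk10 in the summed JNK level per kilobase (vertical axis, percent) by group (horizontal axis), with the median (left) and the longest (right) coding transcript length. Bars are means ± SD (n = 3) and dots are libraries. The share of Mapk10 is higher at P60 with either length, while the shares of Mapk8 and Mapk9 change places between the panels.

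The ratio of kinases inside 1 library does not depend on how the libraries were scaled. From P25-KO to P60-KO, the log2 ratio of Mapk10 to Mapk8 was higher by 0.29 and that of Mapk10 to Mapk9 by 0.28, with no overlap between the ages for either. In 3 against 3 libraries the smallest p that the two-sided exact permutation test allows is 0.1, and both ratios had that value. Of the 12 ratio differences computed, those that hold Mapk10 in WT are given as a description. In WT, as a description, the same ratios were higher at P60 by 0.43 and 0.40. The log2 ratio of Mapk11 to Mapk14, p38β to p38α, was higher by 0.19 in P60-KO than in P25-KO with no overlap (exact permutation p = 0.1) and lower by 0.01 in P60-WT than in P25-WT with overlap.

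In the KO forebrain, Mapk10 and Mapk9 were higher and Mapk3 lower at P60 than at P25, by limma over all genes (adjusted p under 0.05). Mapk10 rose by 35.5% between the group means, a log2 fold change of 0.44 ± 0.08 (SE, adjusted p = 0.00401). Mapk3 fell by 23.0%, a log2 fold change of -0.38 ± 0.05 (SE, adjusted p = 0.00190). Mapk9 rose by 12.2%, a log2 fold change of 0.17 ± 0.05 (SE, adjusted p = 0.0471). Of the 7 kinases 3 passed the test, 2 of them higher, where 20.7% of the 17596 genes tested passed, 9.37% higher and 11.3% lower. The groups did not overlap for 4 of the 7, where they did not for 39.4% of all genes, 18.9% higher and 20.5% lower.

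The calls of Mapk10 and Mapk3 were still made in all 6 fits that left out 1 library, with adjusted p between 0.00613 and 0.0145 for Mapk10 and between 0.00437 and 0.00925 for Mapk3. The call of Mapk9 was lost without any 1 of the 6 libraries (adjusted p between 0.0611 and 0.132).

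Mapk8, Mapk11, Mapk12 and Mapk14 did not pass the test in KO. Their log2 fold changes were 0.15 (adjusted p = 0.105), 0.15 (adjusted p = 0.286), 0.37 (adjusted p = 0.123) and -0.05 (adjusted p = 0.596). The SE of Mapk12 was 0.16, against 0.05 to 0.09 for the other 6 kinases. Leaving out 1 library moved Mapk11 between 0.07, without P60-KO replicate 1 (adjusted p = 0.650), and 0.26, without P60-KO replicate 2, where it passed the test (adjusted p = 0.0360). Mapk8 then lay between 0.10, without P25-KO replicate 3, and 0.19, without P25-KO replicate 2, and Mapk14 between -0.07, without P60-KO replicate 1, and -0.01, without P60-KO replicate 2, and neither passed. Without P60-KO replicate 3, Mapk12 passed it at 0.52 (adjusted p = 0.0438). The median log2 fold change of the 7 kinases was 0.15, and that of all genes was 0.01.

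In the WT forebrain, the comparison that had drawn attention to Mapk10, the mean of Mapk10 was 49.2% higher at P60, a log2 fold change of 0.58 ± 0.07 (SE). The log2 fold changes of Mapk9 and Mapk8 were 0.18 and 0.15, that of Mapk3 was -0.37, and those of Mapk14, Mapk11 and Mapk12 were 0.13, 0.11 and 0.58. Without 1 library that of Mapk11 lay between 0.05 and 0.24, lowest without P60-WT replicate 3 and highest without P60-WT replicate 2. Of all genes 8.65% passed the threshold in this comparison, 3.66% higher and 4.99% lower, and 36% did not overlap between the ages, 17.6% higher and 18.4% lower. The groups did not overlap for 5 of the 7 kinases, and nothing is read from that number, since the group was chosen on this comparison. Without P25-WT replicate 2 the log2 fold change of Mapk3 was -0.29, that of Mapk14 was 0.03 and that of Mapk12 was 0.48.

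The age differences of all genes varied with base composition, and the kinases differ in it. The GC content of the longest coding transcript was 40.1% in Mapk8, 45.7% in Mapk9, 45.6% in Mapk10, 52.5% in Mapk14, 55.1% in Mapk12, 56.7% in Mapk11 and 57.6% in Mapk3. Over 5 equal bins of all genes from low to high GC content, the median log2 fold change in KO was 0.15, 0.08, 0.00, -0.07 and -0.15, and in WT 0.15, 0.08, 0.00, -0.08 and -0.16. The JNK genes lie in the bins with positive medians, and Mapk3 in the bin with the lowest. Mapk11 shares the bin of Mapk3, and Mapk12 and Mapk14 lie in the other bin with a negative median. Against those medians, Mapk11 and Mapk12 were at 0.15 and 0.37 in KO and at 0.11 and 0.58 in WT. Mapk14 was at -0.05 in KO and 0.13 in WT.

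When the trend on transcript length and GC content was removed from each library, a step added after the data had been seen, Mapk10 in KO was at a log2 fold change of 0.32 (adjusted p = 0.00959) and Mapk3 at -0.22 (adjusted p = 0.0159). Both remained past the threshold. Mapk9 was then at 0.06 (adjusted p = 0.413) and Mapk8 at -0.00 (adjusted p = 0.992), while Mapk12 was at 0.47 (adjusted p = 0.0577) and Mapk11 at 0.25 (adjusted p = 0.0906). In WT, as a description, the same step left Mapk10 at 0.42, Mapk3 at -0.16, Mapk9 at 0.05 and Mapk8 at 0.03.

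**Figure D3:**
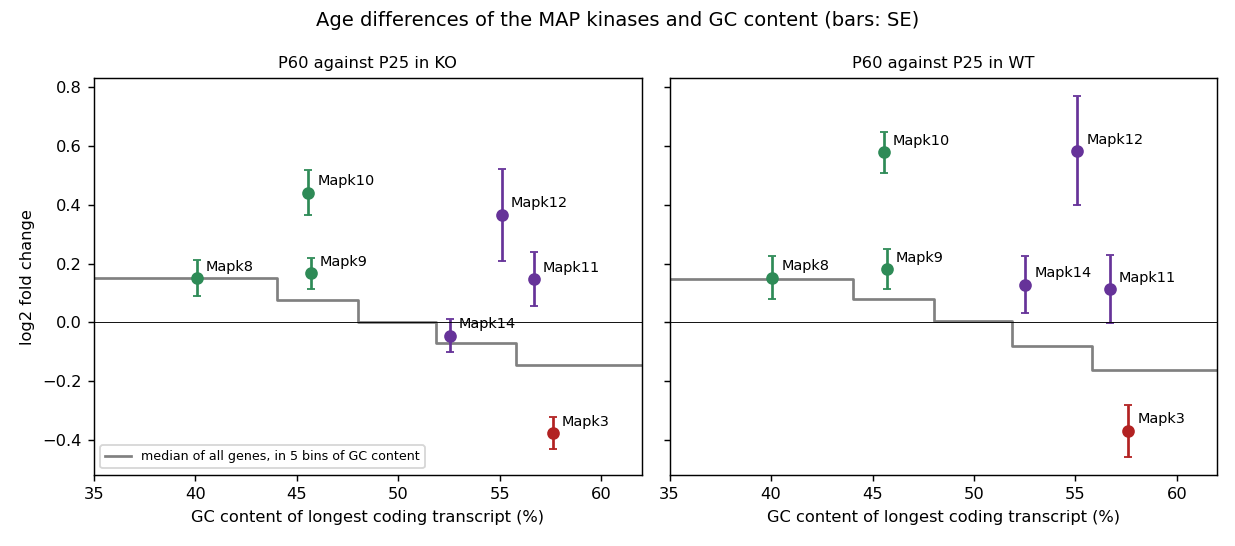
Log2 fold change from P25 to P60 (vertical axis) of the 7 MAP kinases against GC content of the longest coding transcript (horizontal axis, percent), in KO (left) and WT (right). Points are single genes with SE bars, coloured by ERK (red), JNK (green) and p38 (purple), and the grey steps are medians of all genes in 5 bins of GC content. Mapk10, Mapk11 and Mapk12 lie above and Mapk3 below the grey steps in both genotypes, and Mapk8 lies on them in both.

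Markers of cell types also moved with age. All 8 oligodendrocyte markers, such as Mbp of the myelin sheath, fell in KO, with a median log2 fold change of -1.17 and summed levels of 409881 to 484837 normalized counts in P25-KO against 205061 to 227983 in P60-KO. All 8 oligodendrocyte precursor markers also fell (median -0.79), and 4 of 8 astrocyte markers fell (median -0.21). Of 8 pan-neuronal markers 2 rose and 2 fell, with summed levels of 194634 to 210217 in P25-KO and 208405 to 218626 in P60-KO. Of 8 glutamatergic neuron markers 1 rose and 3 fell (median -0.17), and 2 of 8 GABA neuron and 1 of 8 striatal projection neuron markers fell. None of the 8 microglia or 8 endothelial markers passed the test in KO. In bulk tissue, fewer cells of a type and less RNA per cell cannot be told apart, and the part of these shifts in the age differences of the kinases was not tested.

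Loss of Shank3 was not accompanied by a change that passed the test in the kinases other than Mapk10. The genotype differences of Mapk10 rest on the WT libraries through which it was picked, and are a description with no test. At P25 none of the others passed by limma, at the adjusted threshold or at an unadjusted p under 0.05. Of 17515 genes 0.00571% passed the adjusted threshold, that is Shank3 alone, and 1.36% were at an unadjusted p under 0.05. The paper's count model gave further genes at an adjusted p under 0.05, among them Ccdc40 at both ages. The log2 fold changes of KO against WT lay between -0.03 and -0.01 for Mapk3, Mapk8, Mapk9, Mapk10 and Mapk11 and were -0.13 for Mapk12 and 0.11 for Mapk14. Without 1 library that of Mapk12 lay between -0.23, without P25-WT replicate 2, and -0.02, without P25-KO replicate 1. The 95% confidence interval was -0.22 to 0.17 for Mapk3 and -0.48 to 0.23 for Mapk12. No kinase had groups that did not overlap, where 4.76% of all genes had. Without P25-WT replicate 2 the log2 fold change of Mapk3 was 0.06 and that of Mapk14 was 0.01.

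At P60 none of the 6 kinases other than Mapk10 passed the adjusted threshold by limma, where 0.00568% of 17610 genes did, again Shank3 alone. None of the 6 other than Mapk10 was at an unadjusted p under 0.05 by limma, where 2.5% of all genes were, and their groups overlapped, where 7.79% of all genes had groups that did not, 3.63% with KO lower. The mean of Mapk10 in P60-KO differed by -9.75% from that in P60-WT, a log2 fold change of -0.15. Without 1 library the log2 fold change lay between -0.18 and -0.10. The same P60-WT libraries had entered the comparison through which Mapk10 was picked, so its high P60-WT values are not independent of that choice, and its difference is a description with no test.

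The log2 ratio of Mapk10 to Mapk9 was lower by 0.13 in P60-KO than in P60-WT with no overlap, and that of Mapk10 to Mapk8 was lower by 0.12 with overlap. At P25 the same ratios differed by -0.00 and 0.02 between the genotypes. These values, too, rest on the WT libraries through which Mapk10 was picked, and are a description.

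The mean of Mapk12 in P60-KO differed by -21.7% from that in P60-WT, with a log2 fold change of -0.34 ± 0.19 (SE), a 95% confidence interval of -0.76 to 0.07 and overlapping groups (adjusted p = 0.9995). Without 1 library the log2 fold change of Mapk12 lay between -0.52 and -0.19. The log2 fold changes of the other 5 kinases at P60 were -0.04 for Mapk3, -0.03 for Mapk8, -0.02 for Mapk9, 0.02 for Mapk11 and -0.06 for Mapk14. Around the targeted locus, 38 genes within 1 Mb of Shank3 were tested at P60, of which 0 passed at the adjusted threshold or at an unadjusted p under 0.05 by limma, and their median log2 fold change was -0.01. Of these, 1 gene had a lower log2 fold change than Mapk12. At P25, 39 such genes were tested and again 0 passed at either threshold.

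**Figure D4:**
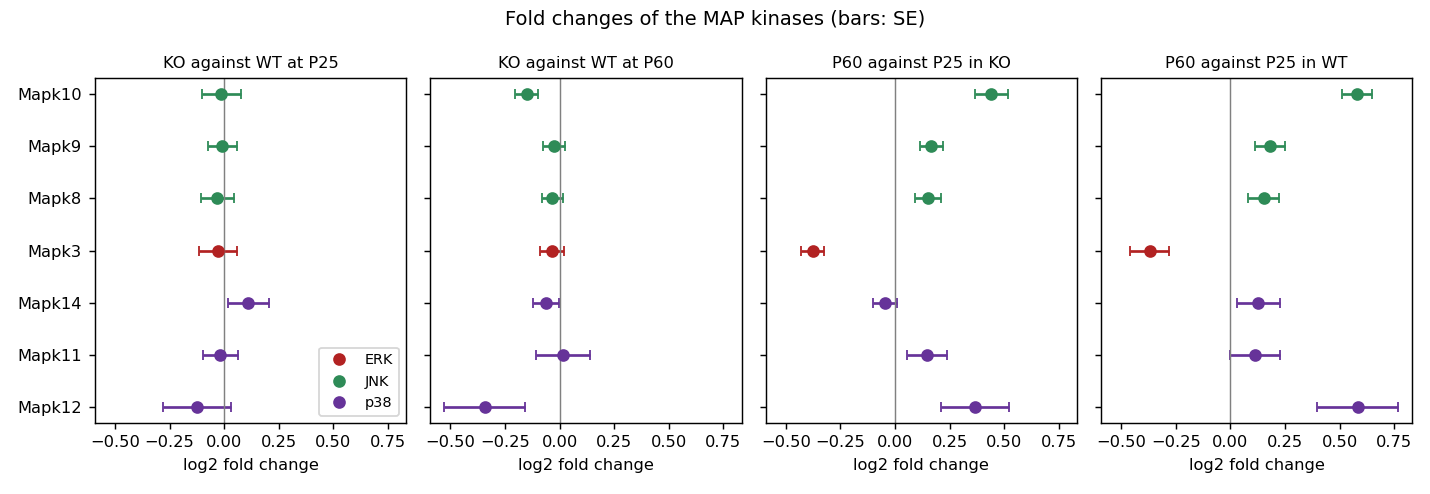
Log2 fold changes of the 7 MAP kinases (horizontal axes, shared) in the 4 comparisons, with bars for the SE and colours for ERK, JNK and p38. Values for KO against WT lie near 0 apart from Mapk12, Mapk10 at P60 (-0.15) and Mapk14 at P25 (0.11), and both age comparisons have Mapk10 to the right and Mapk3 to the left.

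Over both ages together, genotype was permuted within age in an exact two-sided test with 400 arrangements and a smallest p of 0.005. Mapk12 had a mean log2 difference of -0.23 (exact permutation p = 0.135). Without 1 library it lay between -0.32 and -0.16 (exact permutation p between 0.05 and 0.275). The mean log2 difference of Mapk10 was -0.08, and between -0.11 and -0.04 without 1 library. It rests on the WT libraries through which Mapk10 was picked, and is a description with no test. The other 5 kinases had mean log2 differences between -0.03 and 0.02, with exact permutation p between 0.385 for Mapk8 and 0.99 for Mapk11. These p-values are not adjusted for the number of kinases tested.

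The difference between the age effects of the genotypes was tested as an interaction over all 12 libraries, a contrast that contains the WT age comparison, so that its value for Mapk10 is a description only. None of the other 6 kinases passed by limma at the adjusted threshold, where 0% of 17594 genes did, or at an unadjusted p under 0.05. On the log2 scale the interaction was -0.17 ± 0.11 for Mapk14 and -0.22 ± 0.26 for Mapk12 (SE), and the age difference of Mapk10 in KO less that in WT was -0.14. Without 1 library the interaction lay between -0.24 and -0.07 for Mapk14, the latter without P25-WT replicate 2, where that of Mapk12 was -0.11. It lay between -0.40, without P60-WT replicate 3, and -0.06, without P60-KO replicate 3, for Mapk12, and the value of Mapk10 lay between -0.22, without P25-KO replicate 3, and -0.07, without P25-KO replicate 1.

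The rest of the MAP kinase pathway was covered by 8 lists with 97 genes, all of which were measured. From P25-KO to P60-KO, 10 of the 97 rose and 13 fell by limma, 23.7% against the 20.7% of all genes given above. In WT 4 were higher and 5 lower, 9.28% against 8.65% of all genes, and none passed for genotype at either age or for the interaction. The genes named below were taken from those that passed the test in KO, up to 2 in each direction per list, by smallest adjusted p. All 18 therefore passed by the choice. Without 1 library the number passing was 8, 12 and 10 when replicate 1, 2 or 3 of P25-KO was left out, and 12, 14 and 9 when that of P60-KO was. It was 8 with the length and GC trend removed and 4 without a variance trend, namely Marcksl1, Map3k10, Mapk8ip1 and Stmn2, which also passed without any 1 library.

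None of the 7 other MAP kinases on the first list passed in KO. Among 7 MAP kinase kinases, Map2k7, an activator of JNKs, rose from 2457 ± 31.2 to 2896 ± 87.9 normalized counts (SD, n = 3, log2 fold change 0.24, adjusted p = 0.0129). Map2k2, the ERK activator MEK2, fell from 2548 ± 111 to 2172 ± 124 (log2 fold change -0.23, adjusted p = 0.0292). With the length and GC trend removed Map2k2 was at -0.07 (adjusted p = 0.399) and Map2k7 at 0.36 (adjusted p = 0.00258).

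Of 23 MAP3 kinases 3 rose and 2 fell in KO. Map3k10, a mixed-lineage kinase that feeds the JNK branch, fell from 7278 ± 614 to 5395 ± 231 normalized counts (log2 fold change -0.43, adjusted p = 0.00253), and Taok2 fell by 0.21 on the log2 scale (adjusted p = 0.0268). Braf, the RAF kinase at the head of the ERK relay, was up by 0.27 (adjusted p = 0.0116) and Map3k13, a kinase of the dual leucine zipper type, by 0.31 (adjusted p = 0.0233). With the length and GC trend removed Braf was at 0.11 (adjusted p = 0.141), Map3k13 at 0.24 (adjusted p = 0.0746) and Taok2 at -0.10 (adjusted p = 0.198).

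Of 14 scaffolds and adaptors 2 rose and 3 fell. Mapk8ip1, which encodes the JNK-interacting scaffold JIP1, fell from 13485 ± 864 to 10583 ± 308 normalized counts (log2 fold change -0.35, adjusted p = 0.00303), and Mapk8ip2, the gene of the related JIP2, was at -0.18 (adjusted p = 0.0222). Spag9, another JNK-interacting protein, rose by 0.21 on the log2 scale (adjusted p = 0.0171), and Mapkbp1, a JNK-binding protein, by 0.26 (adjusted p = 0.0299). The calls of Spag9, at 0.06 (adjusted p = 0.375), and of Mapk8ip2, at -0.11 (adjusted p = 0.123), were lost with the length and GC trend removed.

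Among 13 phosphatases that act on MAP kinases, Dusp4 rose from 292 ± 52.6 to 443 ± 54.8 normalized counts (log2 fold change 0.61, adjusted p = 0.0172) and Dusp7 fell by 0.24 on the log2 scale (adjusted p = 0.0298). Of 11 kinases that MAP kinases activate, Rps6ka3, the gene of RSK2, rose by 0.30 (adjusted p = 0.0171). With the length and GC trend removed Dusp7 was at -0.10 (adjusted p = 0.216) and Rps6ka3 at 0.18 (adjusted p = 0.0976), and neither passed. Of 11 transcription factor substrates, Elk4, an ETS factor, was lower by 0.31 (adjusted p = 0.0265), and Jun and Fos were among the 10 that did not pass.

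The list with the highest share of calls was that of cytoskeletal and synaptic substrates, in which 2 of 11 rose and 5 fell in KO. Marcksl1, which encodes an actin-binding protein of growing neurites, fell from 5991 ± 266 to 2259 ± 348 normalized counts (log2 fold change -1.42, adjusted p = 3.45e-05). Stmn2, a microtubule regulator of growing axons, fell from 10904 ± 93.1 to 8775 ± 175 (log2 fold change -0.31, adjusted p = 0.00189). Dcx, which encodes the microtubule-associated doublecortin, was up by 0.24 (adjusted p = 0.0287) and Map2, a dendritic microtubule-associated protein, by 0.21 (adjusted p = 0.0386), and neither passed with the length and GC trend removed (adjusted p = 0.649 and 0.103).

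**Figure D5:**
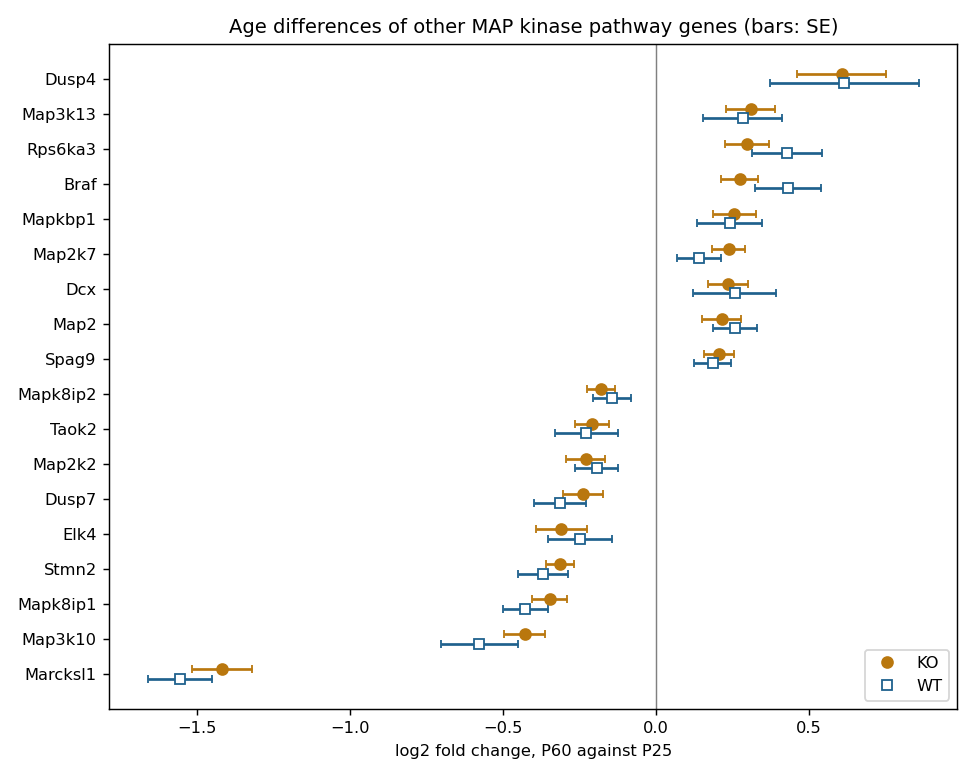
Log2 fold change from P25 to P60 (horizontal axis) of the 18 named genes of the MAP kinase pathway, in KO (filled circles) and WT (open squares), with SE bars. In KO 9 genes lie to the right of 0 and 9 to the left, with Marcksl1 at -1.42 farthest out.

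The 5 genes whose profile over the 12 libraries was most like that of Mapk10, by the root mean square difference of centred log2 values, were Camk1d (0.0857), Cbx7 (0.0867), Pex5l (0.0887), Zfp112 (0.0891) and Sacm1l (0.0922). Camk1d encodes a calcium/calmodulin-dependent kinase, Cbx7 a Polycomb protein, Pex5l a partner of HCN channels and Sacm1l a phosphoinositide phosphatase. Their log2 fold changes from P25-KO to P60-KO were 0.39, 0.47, 0.53, 0.43 and 0.46. Among the 14764 genes ranked by this distance, the nearest of the other kinases were Mapk9 at rank 1150 (0.187) and Mapk8 at rank 1408 (0.194). The p38 genes Mapk12, Mapk11 and Mapk14 were at ranks 3723, 3922 and 4807, and Mapk3 was at rank 12027 (0.457).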

How the data were processed

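Per the labels, forebrain libraries were made with an Illumina TruSeq RNA v2 kit, which does not mark strand. The authors quantified reads with Salmon 1.1.0 on GRCm38 and normalized gene values with DESeq2 1.26.0 in R 3.6.2, as the submitters' processing notes list, and deposited 1 normalized value (signal) per gene and library. Only 2.34% of values lay within 0.01 of a whole number, so counts were not recovered, the study's count model was not used, and no counting interval can be given. Groups came from the labels.

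Values were taken as log2(value + 1), so that fold changes of low genes are understated. Genes whose mean in the compared libraries reached 10 were tested with limma 3.58.1 (R 4.3.3, eBayes with a variance trend) and Benjamini-Hochberg adjustment over all genes, threshold 0.05. All 7 kinases passed the filter. Single values were tested by exact permutation. Alternatives changed the pseudocount, filter, scaling (same total, trimmed mean of M values), variance trend, weights, block, libraries and transcript length. The limma step was tested on simulated data. Coordinates and lengths are from GENCODE M21 on GRCm38, which held 19252 of the 19268 gene identifiers. The transcript annotation the authors quantified against is not given in the sources used here. Named pathway genes were, per list, up to 2 per direction with the smallest adjusted p among those that passed the threshold in KO. The genes most like Mapk10 were the nearest 5, passing over pseudogenes. The members, lists and rules were chosen with earlier results of these data known.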

Additional observations from a re-analysis of the deposited data

How the results depend on the processing

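The calls of Mapk10 and Mapk3 in the KO age comparison were made under every alternative run, with the highest adjusted p without a variance trend (0.0476 and 0.0312). The call of Mapk9 was lost without a variance trend (adjusted p = 0.138), with quality weights (0.0586), with a minimum mean of 1 (0.0504), with 12 libraries in one fit (0.0666), with length and GC trends removed (0.413) and with a replicate block (0.102). Quality weights added a call for Mapk12 (0.46, adjusted p = 0.0497). The number of kinases past the threshold in KO lay between 2 and 3 when 1 library was left out, where 11.9% to 18.4% of all genes passed. In the WT age comparison, which chose the group and where the number is therefore a description only, it was 2, and 1 with libraries scaled to the same total, without a variance trend or with length and GC trends removed, 5 with quality weights, 4 with 12 libraries in one fit, and between 1 and 2 without 1 library (1 without P25-WT replicate 1 or P60-WT replicate 1, 2 or 3). The share of all genes past it moved too, from 8.65% to 9.51%, 1.09% and 5.68% under the first 3 of these, 46.9% with quality weights, 19.6% with 12 libraries and 0.693% to 13.7% without 1 library.

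Replicate numbers were not used as pairs in the main tests. Correlations of deviations between same-numbered libraries lay between -0.0719 and 0.166, and in the 4 comparisons 1, 3, 1 and 1 of 3 numbers correlated best with themselves. The 3 of 3 were in KO against WT at P60 (0.060, 0.166 and 0.129). There the replicate block raised the share of all genes at an unadjusted p under 0.05 by limma from 2.5% to 5.78%. It moved Shank3 at P60 from an adjusted p of 0.00220 to 4.19e-05. What same-numbered P60 libraries have in common was not tested. With the replicate block 2 kinases were past the threshold in KO (14.1% of all genes), 2 in WT (10.2%) and 0 for genotype at either age, and Shank3 at P25 was at an adjusted p of 0.261. Shank3 at P25 also missed the threshold without P25-KO replicate 1 or 2 (adjusted p up to 0.246), without a variance trend (0.412; 0.185 at P60) and with length and GC trends removed (0.0548), while without 1 library its log2 fold change stayed between -1.14 and -0.94 at both ages.

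Small differences changed sign under single alternatives. With quality weights, Mapk3 at P25 was at 0.024, Mapk11 at P60 at -0.016, and the interactions of Mapk8 and Mapk9 at 0.0092 and 0.021. With libraries scaled to the same total, Mapk9 and Mapk10 at P25 were at 0.0045 and 0.0012 and Mapk11 over both ages at 0.0048, and with trimmed-mean factors Mapk9 at P25 was at 0.00046. With length and GC trends removed, Mapk8 in KO was at -0.0012, Map2k2 in WT at 0.0042 and the interaction of Mapk9 at 0.013. The cause was not tested. Leaving out 1 library gave ranges that cross 0 for KO against WT at P25 in Mapk3 (-0.080 to 0.055), Mapk8 (-0.067 to 0.023), Mapk9 (-0.045 to 0.017), Mapk10 (-0.079 to 0.067) and Mapk11 (-0.044 to 0.023), and at P60 in Mapk3 (-0.076 to 0.0015), Mapk9 (-0.056 to 0.0072) and Mapk11 (-0.11 to 0.13). They also crossed 0 for the interactions of Mapk3 (-0.091 to 0.044), Mapk8 (-0.056 to 0.034), Mapk9 (-0.047 to 0.021) and Mapk11 (-0.095 to 0.14), for both ages together in Mapk3 (-0.058 to 0.0096), Mapk11 (-0.064 to 0.055) and Mapk14 (-0.026 to 0.057), and for the ratios of Mapk10 to Mapk8 at P25 (-0.030 to 0.044), Mapk10 to Mapk9 at P25 (-0.070 to 0.050) and Mapk11 to Mapk14 at P60 (-0.0067 to 0.15) and with age in WT (-0.092 to 0.071). With 3 libraries a group, no genotype difference of the kinases other than Mapk10 passed the adjusted threshold by limma under any alternative run. The read depth is unknown.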
